A study of Mus musculus with 6 samples.

Results

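The genes described here are 10 genes of mesenchymal transition and of the matricellular matrix, Vim, Fn1, Snai2, Zeb1, Zeb2, Twist1, Postn, Tnc, Sparc and Tgfbi. They were taken by symbol from a deposited table of 52636 gene IDs, and each symbol matched 1 row. The table holds RNA-seq of EpCAM-high cells sorted from the thoracic oesophagus of Krt5-CreERT2:R26SmoM2/EYFP mice, in 3 untreated libraries and 3 ibuprofen libraries. Ibuprofen, a cyclooxygenase inhibitor, was given in the drinking bottle at 0.6 g per l. Every library, untreated ones included, carried the transgene and came from 12 weeks after tamoxifen, so the comparison is of ibuprofen within a Hedgehog-activated epithelium. The Krt5-driven, tamoxifen-dependent Cre turns on SmoM2, a mutant Smoothened that signals without ligand, in cells expressing keratin 5, so the transgene is limited to them and their progeny. Mouse age and pooling are not stated, and the labels do not tie the libraries to separate animals. P-values therefore cover the spread between libraries, which may be technical. The word epithelial stands in the titles of the untreated libraries and is missing from those of the ibuprofen ones.

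Epithelial to mesenchymal transition is a change of state in which epithelial cells lose junctions and gain motility. The transcription factors Snai2, Zeb1, Zeb2 and Twist1 bind E-box sequences, and the Snail and Zeb factors repress epithelial genes such as the E-cadherin gene Cdh1. Vimentin, a type III intermediate filament, and fibronectin are the classic products of mesenchymal cells. Matricellular proteins are secreted into the matrix, where they tune cell adhesion and signalling more than they bear load. In stratified squamous epithelium Snai2 is also expressed by normal basal cells.

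The values are CPM, the reads of a gene scaled to a common library total. Reads assigned to genes were estimated from the steps of the CPM as 6361297 to 8764370 per library, and 1 read was worth 0.114 to 0.157 CPM. A gene was tested where it reached 1 CPM in at least 3 of the 6 libraries, and 8 of the 10 genes did, with Zeb1 and Twist1 below. Epcam itself was at 232 to 279 CPM and the basal keratin gene Krt5 at 2690.4 to 3939 CPM, while the pan-leukocyte gene Ptprc stayed at or below 0.25 CPM. Epithelial markers were thus high in every library, as the label has it.

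Promoter sequences are shown for 3 of the genes because Postn and Vim hold TATAAA, and Sparc the E-box CAGGTG, near the start site. Postn also had the highest and Vim the lowest fold change of the 8 genes that could be tested. The sequences come from RefSeq, build GRCm38.p6, in which 12 promoters were listed for 7 of the 10 genes, all but Snai2, Fn1 and Zeb1. Each runs from 250 bases before the annotated start to 10 bases after it, 5′ to 3′. Capitals mark TATAAA in Postn and Vim and the E-box CAGGTG in Sparc.
Postn (chr3:54360857-54361116, plus strand): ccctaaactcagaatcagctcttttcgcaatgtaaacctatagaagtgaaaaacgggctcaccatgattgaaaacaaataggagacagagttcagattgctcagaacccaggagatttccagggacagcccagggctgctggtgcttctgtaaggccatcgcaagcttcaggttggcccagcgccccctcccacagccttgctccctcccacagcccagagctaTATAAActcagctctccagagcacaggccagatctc
Vim (chr2:13574061-13574320, plus strand): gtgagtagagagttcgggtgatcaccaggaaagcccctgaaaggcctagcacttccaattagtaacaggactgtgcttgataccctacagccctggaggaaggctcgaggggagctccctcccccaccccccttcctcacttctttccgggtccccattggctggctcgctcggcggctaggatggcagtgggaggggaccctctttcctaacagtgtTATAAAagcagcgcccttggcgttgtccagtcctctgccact
Sparc (chr11:55420071-55420330, minus strand): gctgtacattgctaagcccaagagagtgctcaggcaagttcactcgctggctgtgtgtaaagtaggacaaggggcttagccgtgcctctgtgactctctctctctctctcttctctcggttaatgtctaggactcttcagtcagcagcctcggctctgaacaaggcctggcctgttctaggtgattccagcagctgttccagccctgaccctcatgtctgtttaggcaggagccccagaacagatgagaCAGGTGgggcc
Both strands were searched for each motif in the 300 bases from 250 before to 50 after the start. CAGGTG, the E-box that Snail and Zeb factors are known to bind, was in 1 of the 12 promoters, that of Sparc, against 20.2% of all 32851 promoters listed. In Sparc the match spans a RefSeq start that lies inside the gene as GENCODE annotates it. The Vim window also lies wholly inside the gene as GENCODE annotates it, which begins at 13573927. TATAAA was in 5 of the 12, against 13.6% of all, and these belonged to 4 genes, as overlapping Tnc promoters held the same match. It began 26 bases before the start in Postn, 32 in Vim, 126 in Twist1, and 205 or 126 in Tnc by promoter. A second promoter listed for Postn (chr3:54359017-54359316, plus strand) held no TATAAA and is not shown. The GLI consensus GACCACCCA was in 0 of the 12 and in 0.253% of all. These matches describe letters in a window and were not tested as binding sites.

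**Figure D1:**
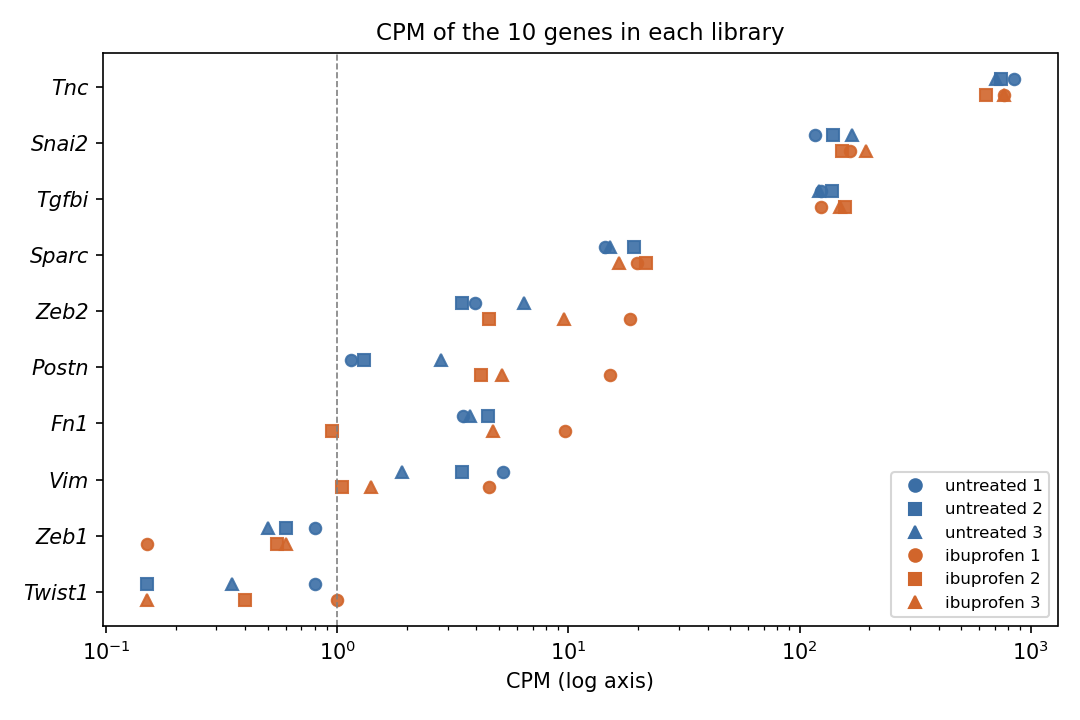
CPM on a log axis for each of the 10 genes in the 3 untreated (blue) and 3 ibuprofen (orange) libraries, with marker shape for the replicate and a dashed line at 1 CPM. Tnc, Snai2 and Tgfbi lie above 100 CPM in every library, Sparc between 14.3 and 21.6, and the other 6 genes below 20, with Zeb1 and Twist1 under 1 CPM throughout.

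The 10 genes spanned a wide range of levels, with Tnc, Snai2 and Tgfbi far above the other 7. Tnc, Snai2 and Tgfbi together made up 93.9% to 97.3% of the summed CPM of the 10 genes in each library. Compared per kb of exon, the mean over the 6 libraries was 96.1 CPM per kb for Tnc, 77.1 for Snai2, 36.0 for Tgfbi and 4.69 for Sparc. Below these came Vim at 0.616 CPM per kb, Postn at 0.57, Zeb2 at 0.388, Fn1 at 0.386, Twist1 at 0.292 and Zeb1 at 0.052. Of the 9 neighbouring pairs in this order, 5 overlapped across libraries, namely Tnc with Snai2, and every neighbouring pair from Vim down to Twist1. Snai2 and Tgfbi, Tgfbi and Sparc, Sparc and Vim, and Twist1 and Zeb1 did not overlap. Lengths are all exons of a gene merged, and those of Zeb2, at 19942 bases, were the longest of the 10.

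None of the 8 tested genes passed the test between ibuprofen and untreated. With limma on log2(CPM + 1) and a Benjamini-Hochberg adjusted p under 0.05 over all tested genes, 0 of the 8 were called, and 87 of 16684 tested genes were (0.521%). At an unadjusted p under 0.05 limma gave 2 of the 8, Postn and Zeb2, both higher, against 17.9% of all tested genes in either direction and 11.8% in the higher one. Log2 fold changes of the 8 (ibuprofen minus untreated) ran from -0.52 to 1.59 with a median of 0.203, against a median of 0.043 over all tested genes. The groups of 3 libraries did not overlap in 1 of the 8 genes, Postn, with ibuprofen above, against 14.2% of all tested genes.

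**Figure D2:**
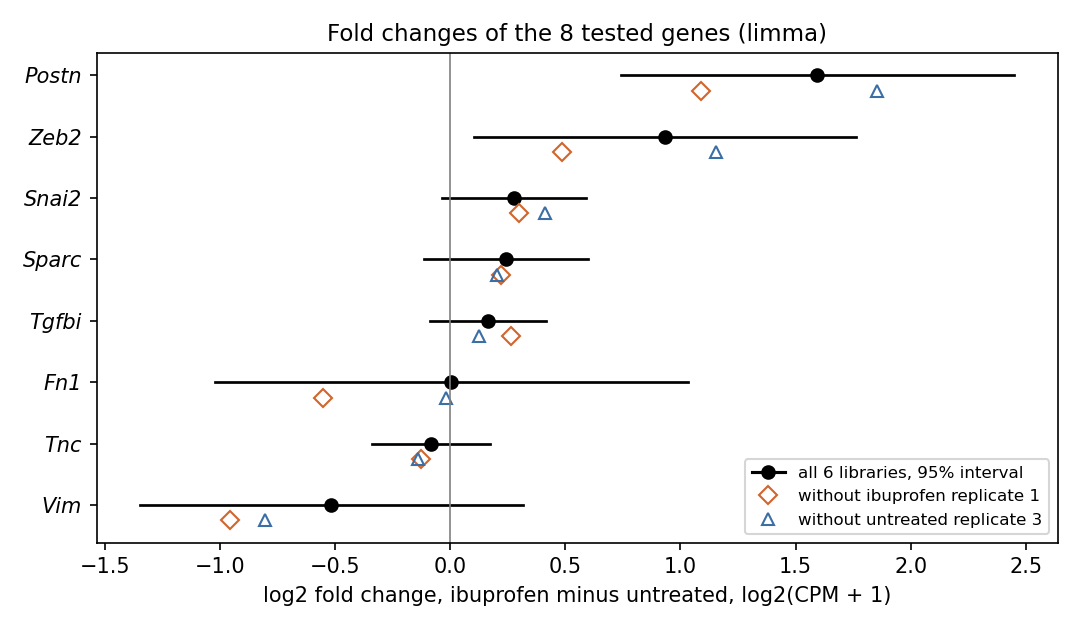
Log2 fold change (ibuprofen minus untreated, log2(CPM + 1)) of the 8 tested genes with its 95% interval from limma on all 6 libraries (black), and the value without ibuprofen replicate 1 (orange diamonds) or without untreated replicate 3 (blue triangles). The interval of Postn runs from 0.74 to 2.45 and that of Zeb2 from 0.1 to 1.76, while the others hold 0; without ibuprofen replicate 1 Postn is at 1.09 and Zeb2 at 0.49.

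Among the matricellular genes, Postn encodes periostin, a fasciclin-domain protein of fibroblasts and activated stroma that binds integrins (ENSMUSG00000027750, chromosome 3, 54361109 to 54391037, GRCm38). Its CPM was 1.15, 1.3 and 2.8 in untreated replicates 1, 2 and 3, and 15.2, 4.2 and 5.15 in the ibuprofen libraries, in the same order of replicates. All 3 ibuprofen libraries lay above all 3 untreated ones, and ibuprofen replicate 1 lay far above the other two ibuprofen libraries. The means were 1.75 ± 0.912 and 8.18 ± 6.09 CPM (SD, n = 3), a log2 fold change of 1.59 ± 0.39 (SE, 95% interval 0.74 to 2.45, limma adjusted p = 0.0976). These levels rest on an estimated 7 to 24 reads in the untreated and 32 to 124 reads in the ibuprofen libraries. Without ibuprofen replicate 1 the fold change was 1.09 with an adjusted p of 0.175, and with library weights it was 1.75 and called (adjusted p = 0.009, range over all alternatives 0.009 to 0.329), a setting that called 14.8% of all tested genes. In RNA from sorted bulk cells, more cells with Postn and more Postn RNA per cell cannot be told apart, and this holds for each gene described here.

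Tgfbi, a fasciclin-domain paralogue of periostin that TGF-beta induces, was abundant and close between the groups (chromosome 13, 56609523 to 56639562). Its CPM was 124, 138 and 121 untreated and 124, 158 and 149 with ibuprofen. Ibuprofen replicate 1 lay among the untreated libraries and the other two above them. Tgfbi had a log2 fold change of 0.16 ± 0.12 (SE, 95% interval -0.09 to 0.42, limma adjusted p = 0.468). This interval lies below the 1.59 estimated for Postn.

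Tnc, the hexameric matrix glycoprotein tenascin C that weakens adhesion to fibronectin, had the highest mean level of the 10 genes (chromosome 4, 63959785 to 64047015, minus strand). Its CPM was 847, 747 and 709.7 in the untreated and 769, 641 and 766 in the ibuprofen libraries. Untreated replicate 1 was the highest and ibuprofen replicate 2 the lowest, with the rest interleaved. The log2 fold change was -0.08 ± 0.12 (SE, 95% interval -0.34 to 0.17, limma adjusted p = 0.728), and it was 0.003 without ibuprofen replicate 2. A transcript on the other strand, 8030451A03Rik, shares 176 exonic bases with Tnc and had 52.2 to 74.4 CPM, and reads in those bases cannot be told apart if strand was not used in counting.

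Sparc, or osteonectin, a collagen-binding glycoprotein, was at an intermediate level (chromosome 11, 55394500 to 55423183, minus strand). Its CPM was 14.3, 19.1 and 15.1 untreated and 19.8, 21.6 and 16.5 with ibuprofen. Untreated replicate 2 lay inside the ibuprofen range, so the groups overlapped. Sparc had a log2 fold change of 0.24 ± 0.16 (SE, 95% interval -0.12 to 0.6, limma adjusted p = 0.446).

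Among the 4 transcription factors of the 10 genes, Snai2, which encodes the zinc-finger repressor Slug, was the most abundant (chromosome 16, 14705852 to 14709385). Its CPM was 116, 139 and 168 in untreated replicates 1, 2 and 3 and 165, 152 and 194 in the ibuprofen replicates. Untreated replicate 3 was above 2 of the 3 ibuprofen libraries. For Snai2 the fit gave a log2 fold change of 0.28 ± 0.14 (SE, 95% interval -0.04 to 0.59, limma adjusted p = 0.328). It was 0.15 without untreated replicate 1 and 0.41 without untreated replicate 3, and 0.12 after a correction for GC content.

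Zeb2, a zinc-finger and homeodomain repressor (chromosome 2, 44983632 to 45117395, minus strand), had 3.95, 3.45 and 6.45 CPM untreated and 18.4, 4.55 and 9.59 CPM in the ibuprofen replicates. Ibuprofen replicates 1 and 3 were above every untreated library, and ibuprofen replicate 2 was below untreated replicate 3. Its log2 fold change was 0.93 ± 0.38 (SE, 95% interval 0.1 to 1.76, limma adjusted p = 0.235), and 0.49 without ibuprofen replicate 1 (adjusted p = 0.509). Its antisense gene Zeb2os was at or below 0.25 CPM in each library.

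Zeb1 and Twist1 were near the limit of detection. Zeb1, the paralogue of Zeb2 (chromosome 18, 5591860 to 5775467), had 0.799, 0.6 and 0.5 CPM in the untreated and 0.15, 0.55 and 0.6 CPM in the ibuprofen libraries, on an estimated 1 to 5 reads per library. Twist1, a basic helix-loop-helix factor of mesoderm and neural crest (chromosome 12, 33957671 to 33959829), had 0.799, 0.15 and 0.35 CPM in the untreated and 0.999, 0.4 and 0.15 CPM in the ibuprofen libraries, on 1 to 8 reads. The groups overlapped in both genes. Fitted without the filter, the log2 fold changes were -0.2 for Zeb1 (95% interval -0.61 to 0.21) and 0.07 for Twist1 (95% interval -0.42 to 0.56). A difference between the groups was not detectable at this depth.

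The 2 classic mesenchymal products were low. Vim (chromosome 2, 13573927 to 13582826) had 5.2, 3.45 and 1.9 CPM in the untreated and 4.55, 1.05 and 1.4 CPM in the ibuprofen libraries, on an estimated 8 to 37 reads. Ibuprofen replicates 2 and 3 were below every untreated library and ibuprofen replicate 1 was among them. The log2 fold change was -0.52 ± 0.38 (SE, 95% interval -1.35 to 0.31, limma adjusted p = 0.485), and it was -0.96 without ibuprofen replicate 1 and -0.24 without ibuprofen replicate 2.

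Fn1, the fibronectin gene (chromosome 1, 71585520 to 71653200, minus strand), had 3.5, 4.5 and 3.75 CPM in the untreated and 9.69, 0.949 and 4.7 CPM in the ibuprofen libraries. The highest and the lowest of all 6 libraries were both ibuprofen libraries, replicates 1 and 2. The log2 fold change was 0.01 ± 0.47 (SE, 95% interval -1.02 to 1.03, limma adjusted p = 0.996), with no stable sign. It was -0.56 without ibuprofen replicate 1, 0.67 without ibuprofen replicate 2, and -0.039 and -0.035 under the TMM-like and median-of-ratios scalings of the libraries.

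Ibuprofen replicate 1 was the highest of the 6 libraries in 4 of the 10 genes, Postn, Zeb2, Fn1 and Twist1, and the lowest in Zeb1. Untreated replicate 1 was the highest in 3, Tnc, Vim and Zeb1. Summed fibroblast markers were also highest in ibuprofen replicate 1. Of these markers 11 of 12 reached 1 CPM in some library and 0 were at 0 in all. The summed CPM of this list was 336 to 377 in the untreated libraries, 549 in ibuprofen replicate 1, and 357 and 346 in the other two. Most of it was Fbln1, and without Fbln1 the sums were 47.7 to 92 CPM untreated. With ibuprofen these sums were 156 CPM in replicate 1, 99.9 in replicate 2 and 69.5 in replicate 3. The collagen gene Col1a1 had 3.65 to 4.6 CPM in the untreated and 29, 4.7 and 3.7 CPM in the ibuprofen libraries, and the proteoglycan gene Dcn 33.9 to 70.5 and 54.3 to 88.1 CPM. Between the groups, the exact two-sided permutation test of the summed level gave p = 0.6 (adjusted 0.7 over 6 marker lists, smallest possible 0.1). Not all markers of the list followed ibuprofen replicate 1. In that library Dpt was at 0.75, Mfap5 at 0.15 and Pi16 at 0.5 CPM, against untreated means of 1.25, 0.583 and 1.02. These 3 genes were low, at most at 1.4 CPM in any library. Apart from them and Dcn, each listed marker was highest in ibuprofen replicate 1. The part of fibroblast markers in the levels of Postn, Zeb2 and Fn1 was not tested.

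**Figure D3:**
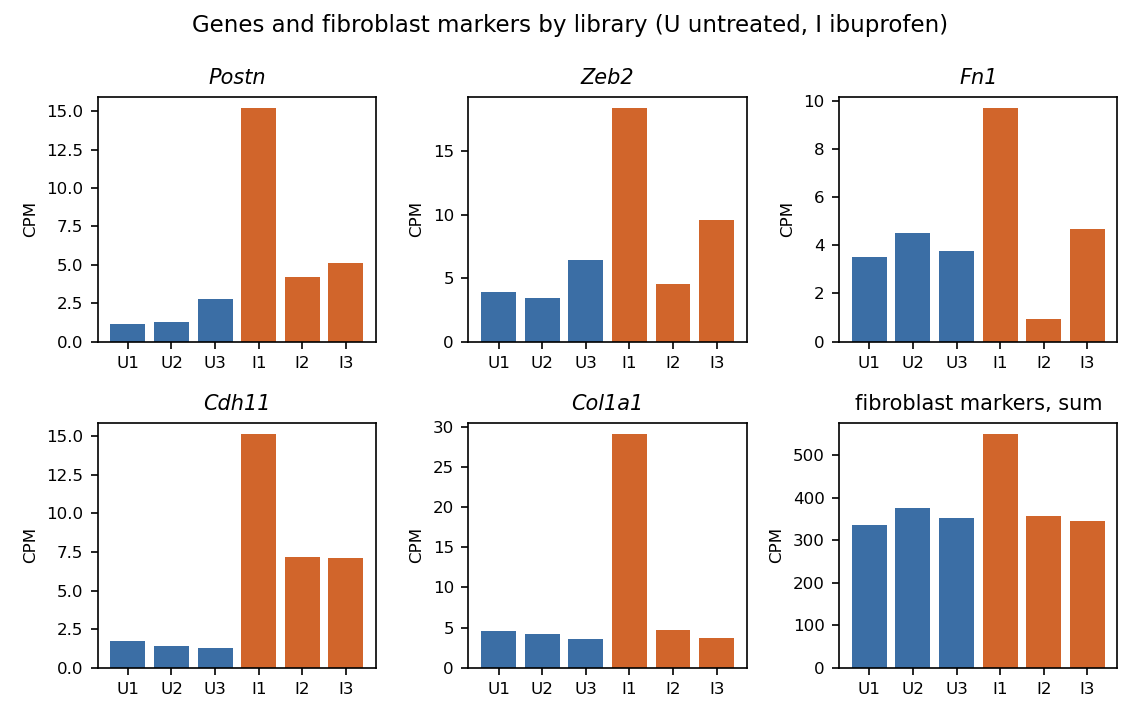
CPM in each library (U1 to U3 untreated, I1 to I3 ibuprofen replicates) of Postn, Zeb2, Fn1, the cadherin gene Cdh11, the fibroblast collagen gene Col1a1 and the sum of 12 fibroblast markers. Ibuprofen replicate 1 is highest in all 6 panels, and ibuprofen replicates 2 and 3 stay above the untreated libraries in Postn and Cdh11 and lie close to them in Col1a1 (4.7 and 3.7 against 3.65 to 4.6 CPM). Genes not highest in ibuprofen replicate 1 are not drawn, among them Dcn, Tnc, Snai2, Tgfbi, Sparc, Vim and Zeb1.

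Markers of other cells were low in both groups. Endothelial markers summed to 16.4 to 17.2 CPM untreated, and 16.5 to 22.8 CPM with ibuprofen, mostly Pecam1 with Egfl7 (2.6 to 4.7 CPM), and 4 of 8 reached 1 CPM. Pecam1 was at 10.4 to 12.5 CPM untreated and 13.1 to 16.7 CPM with ibuprofen, groups that did not overlap (limma adjusted p = 0.346). Egfl7 also had the higher mean with ibuprofen. The other listed genes, Cdh5, Tek, Plvap, Kdr, Emcn and Cldn5, had lower means with ibuprofen and were too low to be tested. The mean of Cdh5, for example, was 0.217 CPM with ibuprofen against 0.933 without. Muscle markers summed to 10.7 to 18.6 and 9.84 to 11.7 CPM, with Tagln and Acta2 the highest by mean over all 6 libraries and 6 of 9 reaching 1 CPM. Skeletal actin, Acta1, was at 2.58 ± 1.55 CPM in the untreated libraries and at 0.433 ± 0.116 CPM with ibuprofen (SD, n = 3), groups that did not overlap (limma adjusted p = 0.104). Those of Ckm did not overlap either (1.85 ± 0.721 and 0.833 ± 0.104 CPM, limma adjusted p = 0.232). Tagln and Acta2 overlapped, with log2 fold changes of 0.079 and -0.005. Macrophage and dendritic markers summed to 25.6 to 28.8 and 25.9 to 35.4 CPM, with H2-Ab1 and Cd68 the highest by the same mean and 4 of 11 reaching 1 CPM. H2-Ab1 and Csf1r overlapped between the groups, with log2 fold changes of -0.005 and 0.058. Cd68, the only other tested gene of this list, had 5.2 ± 1.39 CPM untreated and 8.59 ± 0.736 CPM with ibuprofen (SD, n = 3). Its groups did not overlap (limma adjusted p = 0.147). Of all tested genes 14.2% had such a separation with ibuprofen above, and the share with ibuprofen below was not computed. The Langerhans cell gene Cd207 and the macrophage gene Adgre1 were at 0 in all 6 libraries, where a count of 0 allows up to 0.342 to 0.472 CPM by library. Schwann and melanocyte markers summed to 17.3 to 26 and 24.8 to 25.8 CPM, mostly Pmel, with Mitf next, Sox10 at or below 1.95 CPM, Tyr at 0 in every library and 4 of 9 reaching 1 CPM. The epithelial markers, led by Dsp and Krt5 and all 9 above 1 CPM, summed to 15025.2 to 16319 CPM untreated, and 12694 to 14133 CPM with ibuprofen, groups that did not overlap. Within this list Krt14 and Krt15 did not overlap, with ibuprofen below (log2 fold changes -0.541 and -0.639, limma adjusted p = 0.132 and 0.0615). The exact two-sided permutation test, which cannot pass with 3 against 3, gave adjusted p of 0.6 to 0.7 over the lists. The part of these cells in the values of the 10 genes was not tested.

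**Figure D4:**
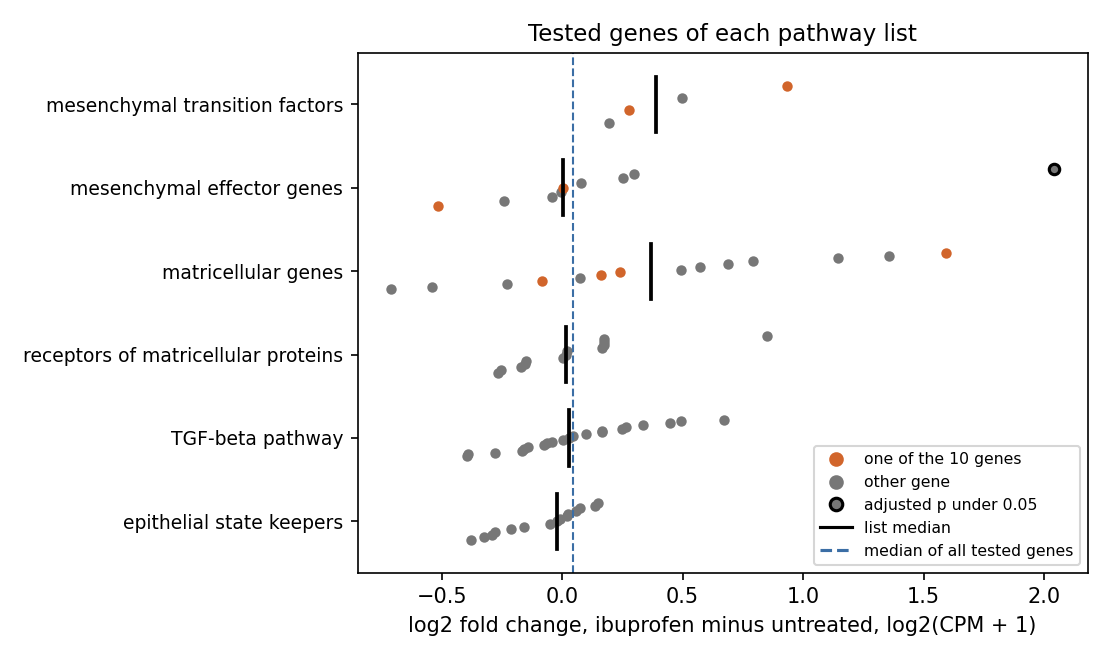
Log2 fold change (ibuprofen minus untreated, log2(CPM + 1)) of every tested gene in 6 pathway lists, the 10 genes in orange, other genes in grey, a black ring for an adjusted p under 0.05, black bars for list medians and a dashed line for the median of all tested genes (0.043). Cdh11 at 2.04 is the ringed gene, and the medians of transition factors (0.388) and matricellular genes (0.369) lie to the right of the line.

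The wider lists around these genes held 1 called gene, Cdh11, where 87 of all 16684 tested genes were called (0.521%). Of the 10 mesenchymal transition factors 4 were tested, and 0 rose or fell. All 4, Snai2 and Zeb2 among them, had positive fold changes, with a median of 0.388, and so did 9400 of all 16684 tested genes. Tcf4, an E-box-binding factor, had 101 ± 18.7 CPM untreated and 142 ± 15.5 CPM with ibuprofen (SD, n = 3), a log2 fold change of 0.5 ± 0.14 (SE, limma adjusted p = 0.128). Twist2 had a log2 fold change of 0.19 ± 0.34 (SE), and Snai1 was too low to be tested, at 0.483 ± 0.225 and 0.866 ± 0.407 CPM.

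Of the 15 mesenchymal effector genes 9 were tested, 1 rose, 0 fell and 8 did not pass, against 0.521% of all tested genes called. Their median was 0.005. Cdh11, a cadherin of mesenchymal cells, had 1.75, 1.4 and 1.3 CPM in the untreated and 15.1, 7.14 and 7.09 CPM in the ibuprofen libraries. It rose by 2.04 ± 0.27 on the log2 scale (SE, limma adjusted p = 0.0214, range over all alternatives 0.000853 to 0.114), higher in 3 of 3 ibuprofen libraries. The call was lost without untreated replicate 1 (log2 fold change 2.12, adjusted p = 0.114) and without untreated replicate 2 (2.02, adjusted p = 0.0836), fits that called 4 and 5 genes in all, and it held without ibuprofen replicate 1, at 1.71.

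Of the 22 matricellular genes 14 were tested and 0 passed. Positive fold changes were found in 10 of the 14, against 9400 of all 16684 tested genes, with a list median of 0.369. At an unadjusted p under 0.05 limma gave 7 of the 14, in either direction, against 17.9% of all tested genes, and with library weights 7 were called, against 14.8% of all tested genes. Smoc2, a secreted modular calcium-binding protein of the SPARC family, had 222 ± 47.8 CPM untreated and 357 ± 69.3 CPM with ibuprofen (SD, n = 3, log2 fold change 0.69 ± 0.17 SE, limma adjusted p = 0.102). Thbs1, which encodes thrombospondin 1, an activator of latent TGF-beta, had 336 ± 72.5 and 593 ± 180 CPM (log2 fold change 0.79 ± 0.22, limma adjusted p = 0.128). Fold changes in the list ran from -0.71 to 1.59.

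Of the 22 TGF-beta pathway genes 21 were tested and 0 passed, with 12 positive and 9 negative fold changes and a median of 0.029. The ligand gene Tgfb1 had 48.5 ± 8.37 CPM untreated and 36.5 ± 1.53 CPM with ibuprofen (SD, n = 3, log2 fold change -0.39 ± 0.14 SE, limma adjusted p = 0.193), and Tgfb3 2.65 ± 0.606 and 4.85 ± 1.23 CPM (log2 fold change 0.67 ± 0.23, limma adjusted p = 0.168). Of the 16 receptor genes for matricellular proteins 13 were tested and 0 passed, with a median of 0.018. Itgb8, whose integrin activates latent TGF-beta, had 31.7 ± 4.12 and 59 ± 15.5 CPM (log2 fold change 0.85 ± 0.17, limma adjusted p = 0.0624), and the syndecan gene Sdc1 had 469 ± 66.5 and 388 ± 36.9 CPM (log2 fold change -0.27 ± 0.13, limma adjusted p = 0.291).

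Of the 15 genes that hold the epithelial state, all were tested and 0 passed, with 6 positive and 9 negative fold changes and a median of -0.021. Grhl3, a factor of epidermal barrier formation, had 70.9 ± 2.36 CPM untreated and 54.5 ± 5.27 CPM with ibuprofen (SD, n = 3, log2 fold change -0.38 ± 0.11 SE, limma adjusted p = 0.135). Elf3, an epithelial ETS factor, had 104 ± 5.67 and 82.7 ± 1.52 CPM (log2 fold change -0.33 ± 0.1, limma adjusted p = 0.141). Cdh1, the E-cadherin gene that Snail and Zeb factors are known to repress, had 571 to 629 CPM untreated, and 596 to 683 CPM with ibuprofen, and Epcam had a log2 fold change of -0.01 ± 0.11. In the same libraries the repressor genes Snai2, Zeb2 and Zeb1 were at 116 to 194, 3.45 to 18.4 and 0.15 to 0.799 CPM.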

How the data were processed

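RNA-seq of 6 libraries, 3 untreated and 3 ibuprofen, was read from 1 deposited table. Its values are CPM, as the file headers name them, scaled by the authors to the library's gene total. The submitters' processing notes name HTSeq, edgeR, STAR 2.5.3a and Cell Ranger 3.1.0 without roles, and the builds GRCm38 and mm10. Annotation release, filters and use of strand: not given in the sources used here. The CPM lay on a step of about 0.05 CPM in each library, as whole reads scaled to a common total and rounded up would, and reads were estimated from it. This returned at least 99.82% of values above 0 exactly. Estimated reads describe depth and floors (3 reads), which cover counting error only, and no count model was fitted.

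Genes with at least 1 CPM in at least 3 libraries were fitted with limma 3.58.1 in R 4.3.3 on log2(CPM + 1), using a trend of variance on mean and no block. A call is a Benjamini-Hochberg adjusted p below 0.05. The fit was tested on simulated libraries. A pseudocount of 1 understates the change of low genes. Summed markers were compared with exact two-sided permutation tests. Exon lengths, positions and GC content came from GENCODE M21 (GRCm38), with GC content for 99.8% of the tested genes, and promoters from RefSeq GRCm38.p6. Library names carry 1 code for all untreated and another for all ibuprofen libraries. A batch these might mark cannot be told apart from treatment.

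The 10 genes, the lists and the tests were chosen with earlier results of these data known. Beside all 10 genes, the text names called members of a pathway list, or else the 2 tested genes with the smallest p, the 2 most abundant markers of each list, and Col1a1, Pecam1, Ptprc, Sox10 and Cd207. Snai1, Cdh1 and Epcam were added for context after their values were seen, as were Krt5 as an identity check and Adgre1 and Tyr as markers at 0. So were Acta1, Ckm, Krt14 and Krt15 as markers whose groups did not overlap. Dpt, Mfap5 and Pi16 were likewise added, as fibroblast markers not highest in ibuprofen replicate 1. Cdh5, Tek, Plvap, Kdr, Emcn, Cldn5 and Csf1r were also added, as markers beside Pecam1 and Cd68 in their lists. Alternatives changed the pseudocount, filter, scaling, shrinkage, library weights, replicate block, each library left out and, added after seeing the data, GC content.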

Additional observations from a re-analysis of the deposited data

How the results depend on the processing

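Over 16 alternatives the number of tested genes called, 87, was 52 with no filter, 2462 with library weights and 434 with a replicate block, and 4 to 456 with a library left out. Of the 10 genes 0 were called in 14 of the 16, and 1, Postn, with library weights and with the replicate block (adjusted p = 0.0388). Whether the replicate numbers pair the libraries is not known. Same-numbered deviations had correlations of 0, 0.08 and 0.153, and the others ran from -0.144 to 0.097. With 3 libraries per group these values cannot decide on pairing, so the block stands for a shared number only. With library weights, which called 14.8% of all tested genes, the calls were 1 of 4 transition factors, 3 of 15 epithelial and 2 of 9 effector genes. They were also 7 of 14 matricellular genes, 4 of 21 in the TGF-beta pathway and 2 of 13 receptors. With the replicate block, which called 434 of 16684 tested genes, they were 1 of 9 effector genes, 4 of 14 matricellular genes and 1 of 13 receptors. With a library left out they were 0 in epithelial genes and 0 to 1 in each of the other lists. Signs changed for Fn1 (-0.12 with a pseudocount of 0.1, -0.039 with TMM-like and -0.035 with median-of-ratios scaling, -0.28 with library weights, -0.56 to 0.67 with a library left out) and for Tnc (-0.14 to 0.003 with a library left out). The other 6 tested genes kept their sign under each alternative that tested them. The difference in summed fibroblast markers was -3.81 to 97.7 CPM with a library left out, and that in endothelial markers -0.17 to 2.98 CPM, or -1.05 CPM without Pecam1. The cause of these changes was not tested. Vim, Fn1 and Postn were not tested at all settings: at a filter of 5 CPM they had too few libraries above it. Counts of 1 to 8 reads limit Zeb1 and Twist1.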
